A study of Mus musculus with 6 samples.

Results

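The genes examined were 9 of the 56748 in the deposited table, chosen by name as genes of the Th17 lineage. They comprise 4 cytokines (*Il17a*, *Il17f*, *Il21* and *Il22*) and a second set of 5, with the receptors *Il23r*, *Ccr6*, *Il1r1* and *Il6ra* and the transcription factor *Rora*. Th17 cells are CD4 helper T cells that secrete IL-17 and defend mucosal surfaces against bacteria and fungi. They arise from naïve CD4 cells when TGF-β acts together with cytokines such as IL-6. TGF-β and IL-2 without such signals favour Tregs, so the lineages share an inducer. The cytokines are the products of the program, the receptors let a cell sense the cytokines that drive it, and RORα, encoded by *Rora*, is a nuclear receptor that promotes transcription of the IL-17 genes.

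Naïve CD4 cells were isolated with a negative selection kit from spleen and lymph nodes of wild-type C57BL/6 mice aged 6 to 10 weeks, and were kept for 3 days under Treg polarizing conditions, that is with IL-2, TGF-β, activating antibodies to CD3 and CD28 and antibodies that block IFNγ and IL-4. An antisense oligonucleotide (ASO), a short synthetic strand that binds a matching RNA, was present at 10 μM in every culture. It was a scrambled control in 3 libraries and was directed at *Pgam*, the gene of a glycolytic enzyme, in the other 3, and both groups otherwise had the same genotype and culture. The cells were not sorted before RNA was taken, and no cytokine added to these cultures besides TGF-β is among those that drive Th17 cells. Totals were 17588755, 18032805 and 16231127 counts for scrambled replicates 1, 2 and 3, and 16589933, 15860476 and 16803881 for *Pgam* ASO replicates 1, 2 and 3. Values are CPM, that is counts relative to the TMM-scaled total of the library, and log2 fold changes are *Pgam* ASO over scrambled. Of 14936 genes tested with edgeR, 2565 (17.2%) had an adjusted p under 0.05, 1199 (8.03%) of them higher and 1366 (9.15%) lower in libraries labelled *Pgam* ASO, and the median over every tested gene was -0.0061 on the log2 scale. The number of genes that passed rested on single libraries, being 620 without scrambled replicate 1, 1256 without scrambled replicate 2, 871 without *Pgam* ASO replicate 1 and 391 without *Pgam* ASO replicate 2.

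The target was checked first. *Pgam1* stood at 600, 478 and 707 CPM in the scrambled libraries and at 658, 661 and 707 CPM in those labelled *Pgam* ASO, so its RNA was not lower in the latter (log2 fold change 0.18, standard error 0.13, edgeR adjusted p = 0.331). *Pgam2*, its muscle paralog, had 5.23, 6.75 and 2.85 CPM against 2.98, 2.69 and 2.60 CPM, with overlapping groups (log2 fold change -0.84, standard error 0.31, edgeR adjusted p = 0.0854). *Pgam2* passed without scrambled replicate 3 (-1.11, edgeR adjusted p = 0.0144). It also passed in edgeR with no filter on low counts (adjusted p = 0.0292), a fit whose p-values can be too small, as set out for *Il22* below. With DESeq2 (adjusted p = 0.0626) and limma-voom (adjusted p = 0.134) it did not pass. Since a fall of the target RNA was not seen for *Pgam1* and did not pass for *Pgam2*, *Pgam* ASO stands for the label of a library in every comparison that follows, and directions are drawn between labels. These are RNA levels, and the amount of the encoded protein cannot be read from them. CD4 cell markers were abundant in each library, with *Cd4* at 770 ± 36.2 CPM (SD, n = 3) in the scrambled group and 666 ± 26.6 CPM (SD, n = 3) in the *Pgam* ASO group. The groups did not overlap for *Cd4*, which was lower in libraries labelled *Pgam* ASO without passing (edgeR adjusted p = 0.0869).

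*Il17a* and *Il21* were higher in every library labelled *Pgam* ASO than in any scrambled library, while *Il17f*, the most abundant of the cytokines, was not. The receptor genes *Ccr6* and *Il6ra* and the factor gene *Rora* moved the other way and were lower in every library labelled *Pgam* ASO. *Il1r1* was the exception among the receptors, being higher. Of the 9 genes, 3 passed the test upwards (*Il17a*, *Il21* and *Il1r1*, against 8.03% of all tested genes), 3 passed downwards (*Rora*, *Ccr6* and *Il6ra*, against 9.15%), *Il17f* and *Il23r* did not pass, and *Il22* was removed by the filter on low counts. *Il1r1* met that filter in 0 of 3 scrambled and 3 of 3 libraries labelled *Pgam* ASO, so it entered the test only through the group where it is high and had to differ, and these counts describe the genes without supporting a shared change. Without scrambled replicate 1 or *Pgam* ASO replicate 2, 1 gene passed upwards, beside 1.45% and 1.03% of all genes tested in those settings, and without *Pgam* ASO replicate 3, 5 did, beside 10.2%. Downwards, 1 gene passed without *Pgam* ASO replicate 2, beside 1.48%. Groups did not overlap for 7 of the 8 tested genes, as for 39.5% of all tested genes. In RNA from whole cultures, a change in the number of cells that express a gene and a change in RNA per cell cannot be told apart.

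**Figure D1:**
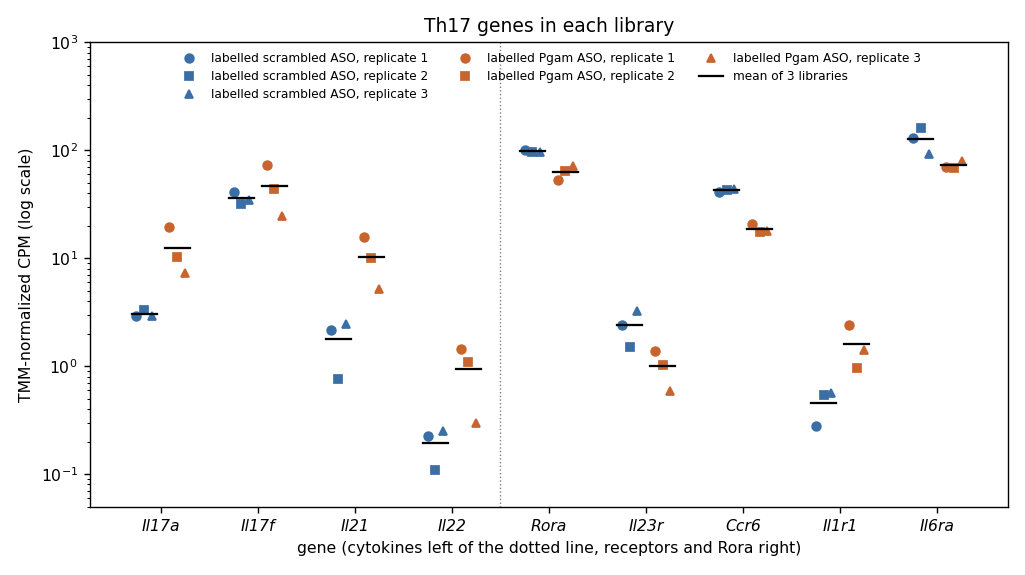
TMM-normalized CPM (log scale) of the 9 Th17 genes in each library, with the mean of 3 libraries as a black line, cytokines left and receptors with *Rora* right of the dotted line. *Il17a*, *Il21* and *Il1r1* sit higher and *Rora*, *Ccr6* and *Il6ra* lower in the libraries labelled *Pgam* ASO, whereas the groups overlap for *Il17f*.

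The promoters of several of these genes hold the core motif bound by ROR proteins, AGGTCA, which was searched on both strands in the 250 bases before each RefSeq start (GRCm38.p6), with all 9 genes matched. It occurs in 14.0% of 32851 promoters, and here in those of *Il17a* (at -120), *Il17f* (at -58), *Il23r* (at -229 and -66) and *Ccr6* (at -44 in 1 of its 2 promoters), positions being the first base of a match counted back from the start. No match was found in those of *Il21*, *Il22*, *Rora*, *Il1r1* or *Il6ra*. The genes with the motif thus include *Il17a*, which rose, and *Ccr6*, which fell. The promoters of *Il17a* (chr1:20730655-20730904, plus strand), *Ccr6* (chr17:8235793-8236042, plus strand) and *Il23r* (chr6:67491856-67492105, minus strand) are shown because they hold the same letters before genes that differed in direction or did not pass, 5′ to 3′ on the strand of the gene, with each match to the motif or its complement in capitals.
Il17a: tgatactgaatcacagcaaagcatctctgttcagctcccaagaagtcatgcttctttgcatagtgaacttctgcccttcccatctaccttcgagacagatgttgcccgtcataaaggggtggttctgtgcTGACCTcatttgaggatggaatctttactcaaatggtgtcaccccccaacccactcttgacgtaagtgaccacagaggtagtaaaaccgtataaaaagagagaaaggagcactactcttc
Ccr6: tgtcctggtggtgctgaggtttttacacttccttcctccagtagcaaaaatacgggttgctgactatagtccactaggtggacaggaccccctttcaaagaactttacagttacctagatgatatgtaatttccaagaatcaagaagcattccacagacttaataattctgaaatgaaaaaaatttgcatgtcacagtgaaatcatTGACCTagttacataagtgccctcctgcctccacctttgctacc
Il23r: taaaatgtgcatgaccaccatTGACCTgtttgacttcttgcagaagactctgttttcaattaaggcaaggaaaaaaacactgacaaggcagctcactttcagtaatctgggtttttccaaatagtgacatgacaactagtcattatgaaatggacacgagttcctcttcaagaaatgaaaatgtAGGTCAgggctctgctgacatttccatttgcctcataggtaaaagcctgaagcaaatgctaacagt
Other motifs were searched in the same way. The STAT motif TTCNNNGAA (7.02% of promoters) was found in that of *Ccr6*, the AP-1 and BATF motif TGANTCA (6.75%) in that of *Il17a*, and the NFAT core GGAAAA (20.4%) in those of *Il17f*, *Il21*, *Rora* and *Il23r*. A match describes letters and not a bound site.

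*Il17a* (ENSMUSG00000025929) encodes IL-17A, the defining Th17 cytokine, and lies on chromosome 1 from 20730905 to 20734496 (GRCm38, plus strand). Its level was 2.93, 3.29 and 2.91 CPM in scrambled replicates 1, 2 and 3, and 19.6, 10.3 and 7.28 CPM in *Pgam* ASO replicates 1, 2 and 3. The scrambled libraries lay close together, whereas the libraries labelled *Pgam* ASO were spread and replicate 1 was the highest. Means were 3.04 ± 0.217 and 12.4 ± 6.41 CPM (SD, n = 3 each), a 4.06-fold difference. The log2 fold change was 2.02 (standard error 0.34, 95% CI 1.25 to 2.78, edgeR adjusted p = 0.00730), and it passed whichever library was left out, at 1.53 to 2.30 with an adjusted p of at most 0.0414.

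*Il17f* (ENSMUSG00000041872), a neighbour of *Il17a* on chromosome 1 (20777146 to 20790617, minus strand), encodes IL-17F, which pairs with IL-17A or with itself and signals through the same receptor. Its level was 41.1, 32.0 and 34.8 CPM in the scrambled libraries and 72.9, 43.3 and 24.7 CPM in those labelled *Pgam* ASO. *Pgam* ASO replicate 1 was thus the highest of the 6 libraries and replicate 3 the lowest. The log2 fold change was 0.38 (standard error 0.37, 95% CI -0.52 to 1.29, edgeR adjusted p = 0.511), so a difference of either direction fits inside the interval. Single libraries decided its value, since it was -0.080 without *Pgam* ASO replicate 1 (adjusted p = 0.855) and 0.70 without *Pgam* ASO replicate 3 (adjusted p = 0.0439, edgeR). Kallisto divides reads between genes of like sequence, and 8.75% of the 31-base stretches in *Il17f* transcripts recur elsewhere, most often in *Gm10687*.

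*Il21* (ENSMUSG00000027718, chromosome 3 from 37222759 to 37232636, minus strand) encodes IL-21, a cytokine made by Th17 and follicular helper T cells that can sustain Th17 cells in turn. Its level was 2.14, 0.756 and 2.48 CPM in the scrambled libraries and 15.8, 9.95 and 5.21 CPM in those labelled *Pgam* ASO. The lowest library labelled *Pgam* ASO, replicate 3, was above the highest scrambled library. The 5.76-fold difference in means gave a log2 fold change of 2.53 (standard error 0.50, 95% CI 1.40 to 3.67, edgeR adjusted p = 0.0157). Of its 31-base stretches 8.98% recur in other genes, most often in *Gm12534*. The value stayed between 2.09 and 2.86 with each library left out, but it no longer passed without scrambled replicate 1 (adjusted p = 0.0598) or without *Pgam* ASO replicate 2 (adjusted p = 0.0632, edgeR).

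*Il22* (ENSMUSG00000074695, chromosome 10 from 118204942 to 118210047, plus strand) encodes IL-22, which acts on epithelial cells. It was counted 4, 2 and 4 times in the scrambled libraries and 23, 17 and 5 times in the libraries labelled *Pgam* ASO, that is 0.225, 0.108 and 0.248 CPM against 1.43, 1.09 and 0.296 CPM. *Pgam* ASO replicates 1 and 2 stood apart, while replicate 3 exceeded the highest scrambled library by a single count. In edgeR with no filter on low counts, where 6.43% of 28512 genes were called higher, the log2 fold change was 2.25 (standard error 0.68, 95% CI 0.91 to 3.59, adjusted p = 0.0106). That fit assigned its genes a median of 114048 degrees of freedom against 10.2 in the filtered fit, so for a gene with that many, as *Il22*, it treats the spread as almost known, and the interval is too narrow and the p-value too small for 3 libraries a group. DESeq2 without independent filtering gave 2.30 with an adjusted p of 0.0816, and edgeR gave adjusted p-values of 0.0689 without scrambled replicate 2, 0.210 without *Pgam* ASO replicate 1 and 0.0760 without *Pgam* ASO replicate 2. *Il22* also shares 53.6% of its 31-base stretches with its copy *Iltifb*, which had 0, 0 and 0 counts against 1, 2 and 0.

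*Ccr6* (ENSMUSG00000040899, chromosome 17 from 8236043 to 8257141, plus strand) encodes the receptor for the chemokine CCL20 and marks Th17 cells as well as part of the Tregs. Its level was 41.2, 42.8 and 44.0 CPM in the scrambled libraries and 20.6, 17.3 and 17.8 CPM in those labelled *Pgam* ASO. Neither group varied much, and the gap between them was several times the spread within either. The mean was 2.30-fold lower in libraries labelled *Pgam* ASO (42.7 ± 1.44 against 18.6 ± 1.74 CPM, SD, n = 3 each). On the log2 scale the difference was -1.20 (standard error 0.11, 95% CI -1.44 to -0.97, edgeR adjusted p = 0.000395), and it passed at -1.28 to -1.15 with each library left out.

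*Rora* (ENSMUSG00000032238, chromosome 9 from 68653786 to 69388246, plus strand) was at 100.4, 97.3 and 96.7 CPM in the scrambled libraries and at 52.9, 63.7 and 72.2 CPM in those labelled *Pgam* ASO. All 3 scrambled libraries were near the same level and above each library labelled *Pgam* ASO. Its log2 fold change was -0.64 (standard error 0.11, 95% CI -0.89 to -0.40, edgeR adjusted p = 0.00713). Without *Pgam* ASO replicate 2 it was -0.65 with an adjusted p of 0.0506 (edgeR), and it passed without any other library. The library labelled *Pgam* ASO with the least *Rora*, replicate 1, was the library with the most *Il17a*, *Il17f*, *Il21* and *Il22*, and the library with the most *Rora*, replicate 3, had the least of each cytokine among the libraries labelled *Pgam* ASO. *Il23r*, which was lower in libraries labelled *Pgam* ASO, ranked those 3 libraries as the cytokines did, with replicate 1 highest and replicate 3 lowest, and so did 24.7% of all tested genes. The share with the order of *Rora* was not counted, but *Foxp3* had it too (89.7, 108.8 and 130.9 CPM). Over all tested genes, *Pgam* ASO replicates 1, 2 and 3 differed from scrambled replicate 1 by a chi-square per degree of freedom of 50.5, 34.5 and 23.7. These orders are thus not particular to the Th17 genes, and a relation between *Rora* and the cytokines was not tested.

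*Il6ra* (ENSMUSG00000027947, chromosome 3 from 89864059 to 89913196, minus strand) encodes the IL-6 binding chain of the IL-6 receptor. Its level was 130.0, 159.8 and 93.0 CPM in the scrambled libraries and 70.6, 68.8 and 78.6 CPM in those labelled *Pgam* ASO. Here the scrambled libraries were the spread ones, with replicate 2 the highest. Its log2 fold change was -0.81 (standard error 0.17, 95% CI -1.20 to -0.43, edgeR adjusted p = 0.0176). The call was lost without scrambled replicate 1 (adjusted p = 0.0631), without *Pgam* ASO replicate 1 (adjusted p = 0.0571) and without *Pgam* ASO replicate 2 (adjusted p = 0.0878, edgeR), at values between -0.80 and -0.77.

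*Il23r* (ENSMUSG00000049093, chromosome 6 from 67422932 to 67491855, minus strand) encodes the specific chain of the receptor for IL-23, the cytokine that maintains Th17 cells. It was counted 43, 28 and 52 times in the scrambled libraries and 22, 16 and 10 times in the libraries labelled *Pgam* ASO, or 2.42, 1.51 and 3.22 CPM against 1.37, 1.03 and 0.592 CPM. The groups did not overlap, with a narrow gap, and *Il23r* met the filter in 2 of 3 libraries labelled *Pgam* ASO. The log2 fold change of -1.25 (standard error 0.41, 95% CI -2.16 to -0.34) did not pass after adjustment (edgeR adjusted p = 0.0592). It passed with DESeq2 (adjusted p = 0.0428), with at least 10 counts required in every library (edgeR adjusted p = 0.0479) and without scrambled replicate 2 (-1.50, edgeR adjusted p = 0.0434). It also passed with no filter (edgeR adjusted p = 0.0173), where the p-value is too small, as for *Il22*. It did not pass with limma-voom (adjusted p = 0.0735) or the replicate block (edgeR adjusted p = 0.111). The adjusted p reached 0.162 without *Pgam* ASO replicate 2 (edgeR).

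*Il1r1* (ENSMUSG00000026072, chromosome 1 from 40225080 to 40317257, plus strand) encodes the signalling receptor for IL-1. It was counted 5, 10 and 9 times in the scrambled libraries and 39, 15 and 24 times in the libraries labelled *Pgam* ASO, or 0.281, 0.540 and 0.558 CPM against 2.42, 0.962 and 1.42 CPM. Every library labelled *Pgam* ASO was above every scrambled library, at counts where few reads decide a value. With a log2 fold change of 1.79 (standard error 0.48, 95% CI 0.72 to 2.85, edgeR adjusted p = 0.0325) it passed in the full set. It did not pass without scrambled replicate 1 (adjusted p = 0.115), scrambled replicate 2 (0.0621), *Pgam* ASO replicate 1 (0.139) or *Pgam* ASO replicate 2 (0.0690, edgeR).

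**Figure D2:**
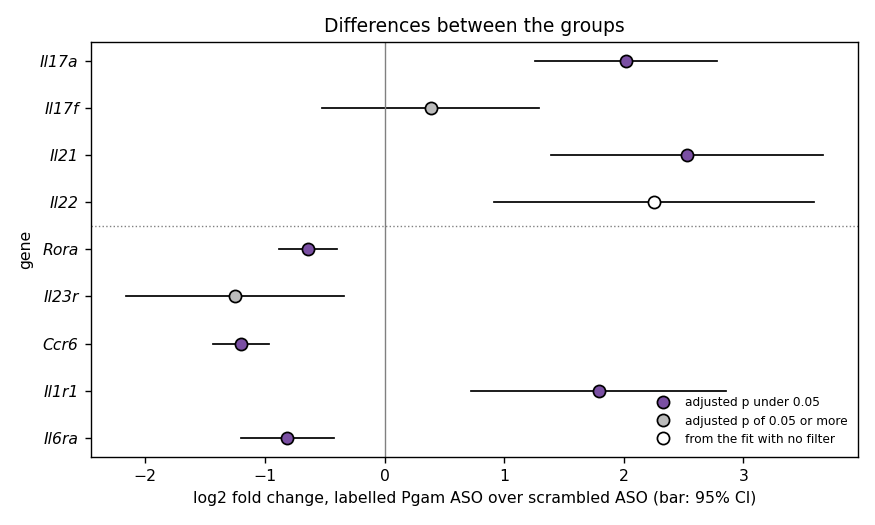
Log2 fold change of each Th17 gene, *Pgam* ASO over scrambled, with its 95% CI as a bar, cytokines above and receptors with *Rora* below the dotted line. *Il17a*, *Il21* and *Il1r1* lie right of 0 and *Rora*, *Ccr6* and *Il6ra* left of it with an adjusted p under 0.05 (purple), *Il17f* and *Il23r* did not pass (grey), and *Il22* (white) comes from the fit with no filter.

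Set against each other, the cytokines and the receptors with *Rora* had medians of opposite sign. The median log2 fold change was 2.02 over the 3 cytokine genes tested and -0.81 over the 5 others, beside -0.0061 for all tested genes. With *Il22* added from the fit with no filter, the cytokine median was 2.14. These medians describe so few genes that a single gene sets each of them, *Il17a* and *Il6ra* in turn, and *Il17f* and *Il1r1* depart from the sign or size of their set. The receptor and factor median was -0.65 without scrambled replicate 2 and -0.98 without scrambled replicate 3.

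**Figure D3:**
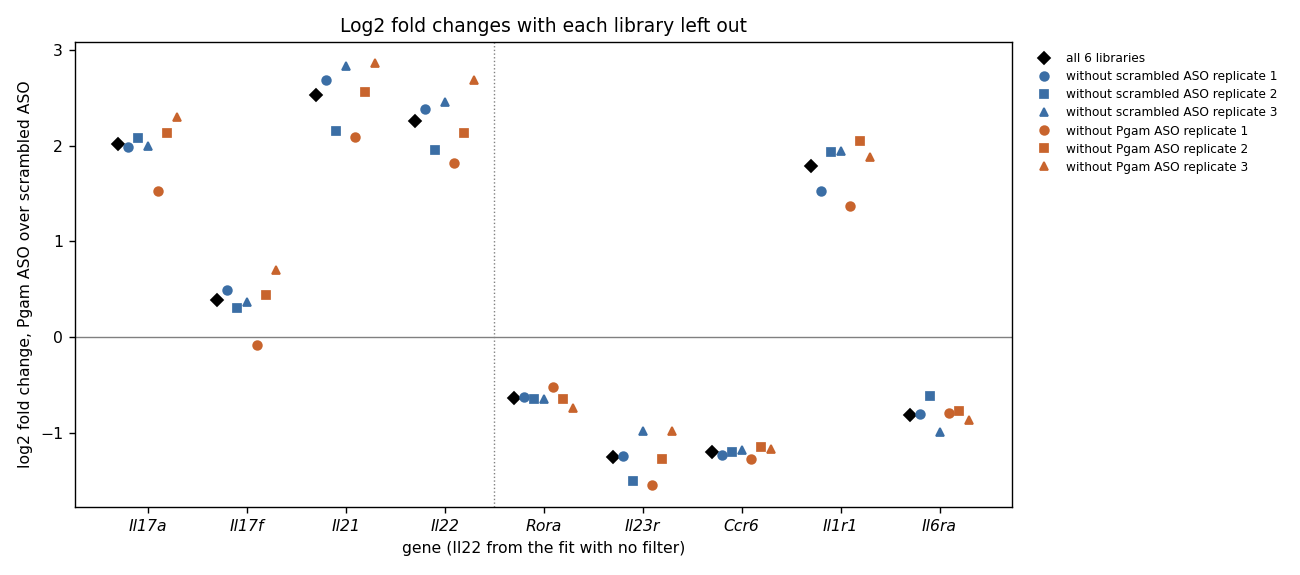
Log2 fold change of each Th17 gene with all 6 libraries (black) and with each library left out in turn (colour for the label, shape for the replicate). The value for *Il17f* falls to -0.080 without *Pgam* ASO replicate 1, while those of *Il17a* and *Il21* stay above 0 and those of *Rora*, *Il23r*, *Ccr6* and *Il6ra* below 0.

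To compare levels between genes, CPM was divided by the mean length of each gene's annotated transcripts. On that scale, *Il17f* was the highest of the 9 in the scrambled group at 35.9 ± 4.69 CPM per kb (SD, n = 3), and it did not differ beyond the spread from *Ccr6* at 34.2 ± 1.15 CPM per kb. *Il6ra* followed with 21.3 ± 5.58 and *Rora* with 14.6 ± 0.298 CPM per kb. *Il17a* stood at 2.60 ± 0.185 CPM per kb, and *Il21* (0.995 ± 0.507) and *Il23r* (0.958 ± 0.344 CPM per kb) did not differ beyond their spread. The scrambled libraries thus held *Il17f* and the receptor and factor genes at the top, except *Il23r* and *Il1r1*. *Il22* and *Il1r1* were the lowest, at 0.174 ± 0.0676 and 0.0863 ± 0.0290 CPM per kb, and did not differ beyond their spread. In the *Pgam* ASO group *Il17f* was again the highest at 46.9 ± 24.3 CPM per kb (SD, n = 3). *Ccr6* (14.9 ± 1.40), *Il6ra* (12.1 ± 0.875), *Il17a* (10.6 ± 5.47) and *Rora* (9.35 ± 1.43 CPM per kb) followed. Of these, *Ccr6* and *Il6ra* differed beyond their spread, and *Il6ra* was above *Rora* in each library of that group. *Il17a* differed from neither *Il6ra* nor *Rora* beyond the spread. The place of *Il17a* rests on *Pgam* ASO replicate 1 (16.7 CPM per kb), since at 8.77 and 6.21 CPM per kb in replicates 2 and 3 it was below *Ccr6*, *Il6ra* and *Rora*. *Il21* was at 5.73 ± 2.94, *Il22* at 0.845 ± 0.524, *Il23r* at 0.400 ± 0.156 and *Il1r1* at 0.301 ± 0.140 CPM per kb. Here *Il21* did not differ from *Rora* beyond their spread, nor did *Il22* from *Il23r* or *Il23r* from *Il1r1*, while *Il21* differed from *Il22* beyond it. The order depends on the length used. Per kb of the longest annotated transcript, a scale chosen after seeing the data, *Il17f* exceeded *Ccr6* beyond the spread in the scrambled group (30.5 against 24.3 CPM per kb). The mean of *Il21* was below that of *Il23r* there (0.583 against 0.958 CPM per kb), although their values overlapped between libraries. In the *Pgam* ASO group the mean of *Il17a* (10.6) was then above those of *Il6ra* (8.41) and *Rora* (5.79 CPM per kb), although in replicate 3 it was below both.

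Summed over the 4 cytokine genes, the level was 45.0, 35.3 and 38.8 CPM per kb in the scrambled libraries and 99.6, 58.5 and 34.0 CPM per kb in those labelled *Pgam* ASO, so the groups overlapped. The makeup of the sum separated them where its size did not. That follows from *Il17a* and *Il21*, which were called higher above while *Il17f* was not, and is no further result. *Il17f* made up 91.3%, 90.6% and 89.5% of it in the scrambled libraries and 73.1%, 73.9% and 72.4% in those labelled *Pgam* ASO. Of *Il17a* and *Il17f* together, *Il17a* was 5.73%, 8.10% and 6.69% in the former and 18.7%, 16.9% and 20.1% in the latter. *Pgam* ASO replicate 3 had less *Il17f* than any scrambled library and the highest share of *Il17a*. Per kb of the longest transcript that share was 6.68%, 9.39% and 7.77% against 21.3%, 19.3% and 22.9%. The summed receptors and *Rora* fell from 70.6, 76.1 and 66.6 CPM per kb to 37.1, 35.4 and 38.6 CPM per kb, a description of genes already tested above.

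**Figure D4:**
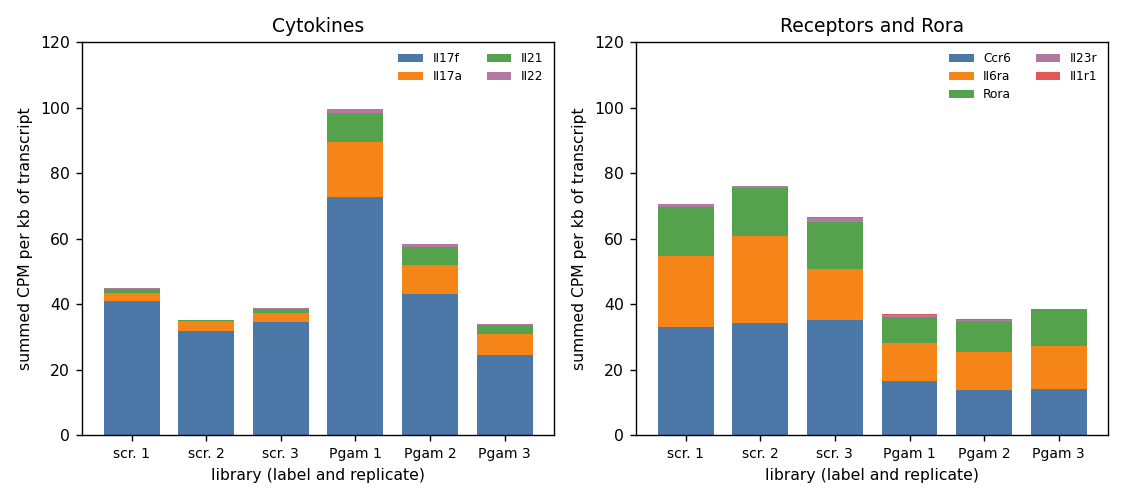
Stacked CPM per kb of transcript in each library, cytokines left and receptors with *Rora* right, where scr. is scrambled ASO and Pgam is *Pgam* ASO with the replicate number. The cytokine sum ranges from 34.0 to 99.6 CPM per kb among the libraries labelled *Pgam* ASO, while the receptor and *Rora* sum is between 35.4 and 38.6 CPM per kb there.

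Innate lymphocytes also make IL-17, so markers of other cells were examined. The starting cells came from a negative selection for naïve CD4 cells, which is meant to remove such cells, and were not sorted after culture. Of 7 γδ T cell markers 5 were tested, and 3 were higher in libraries labelled *Pgam* ASO (*Tcrg-C1*, *Tcrg-C2* and *Tcrg-C4*, against 8.03% of all tested genes) and 0 lower. Summed over all 7 markers, the level was 11.7, 12.0 and 13.8 CPM in the scrambled libraries and 27.0, 29.4 and 27.3 CPM in those labelled *Pgam* ASO. *Tcrg-C2*, the most abundant, was higher by 1.69 on the log2 scale (standard error 0.23, edgeR adjusted p = 0.00229), and 0 of the 7 markers had 0 counts throughout. *Trdc*, which encodes the constant part of the δ chain that defines these cells, was at 3.75 ± 0.493 against 2.84 ± 0.0946 CPM (SD, n = 3 each, log2 fold change -0.40, edgeR adjusted p = 0.248), and *Cd163l1*, a marker of γδ cells that make IL-17, was at 0.147 and 0.0621 CPM. The remaining 2 markers went the other way, *Sox13* at 0.652 against 1.35 CPM without overlap (log2 fold change 1.05, edgeR adjusted p = 0.101) and *Blk*, which was not tested, at 0.256 against 0.584 CPM. The part of γδ T cells in the cytokine levels was not tested.

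Mast cell and basophil markers summed to 1.07, 1.89 and 1.36 CPM against 4.10, 3.98 and 2.96 CPM, of which 1 of 4 was tested and 0 passed (*Cpa3*, log2 fold change 1.09, edgeR adjusted p = 0.0526, with alternatives from 0.0399 to 0.157, among them 0.0480 with DESeq2 and 0.0415 without scrambled replicate 2). NK and innate lymphoid markers summed to 58.1, 42.2 and 58.4 CPM against 29.8, 28.9 and 26.3 CPM. That sum was mostly *Eomes*, which activated T cells also express (log2 fold change -0.82, edgeR adjusted p = 0.0214, lost at 0.0766 without scrambled replicate 1, 0.0530 without *Pgam* ASO replicate 1 and 0.0893 without *Pgam* ASO replicate 2), with *Klrd1* also lower (-2.09, edgeR adjusted p = 0.0131), *Klrb1c* at 0 in all 6 libraries, *Ncr1* at 0.0548 and 0.0421 CPM and *Tyrobp*, which was not tested, higher without overlap at 0.206 and 0.456 CPM. Of the 2 CD8 markers, *Cd8a* was higher (2.59 against 5.65 CPM, edgeR adjusted p = 0.0286) and the more abundant *Cd8b1* did not pass. Summed B cell markers (9.18 ± 2.49 against 8.85 ± 0.943 CPM, *Cd79a* the most abundant), myeloid markers (3.47 ± 1.03 against 4.01 ± 0.441 CPM, *Lyz2*) and the NKT marker *Zbtb16* (1.28 ± 0.183 against 1.71 ± 0.485 CPM, SD, n = 3 each) overlapped between groups. *Lyz2* itself was higher without overlap (1.15 against 1.48 CPM, log2 fold change 0.35, edgeR adjusted p = 0.481). *Itgam* went the other way with overlap (-1.27, edgeR adjusted p = 0.401). Of the 7 CD4 T cell markers 1, *Cd28*, was lower and 0 were higher, beside 9.15% and 8.03% of all tested genes. Groups did not overlap for 5 of the 7, as for 39.5% of all tested genes. All 5 were lower in libraries labelled *Pgam* ASO, namely *Cd28* (-0.66), *Cd3e* (-0.37, edgeR adjusted p = 0.0520), *Cd3g* (-0.34), *Cd3d* (-0.27) and *Cd4* (-0.21). The groups overlapped for *Cd2* and *Lck*. The part of these other cell types in the levels of the Th17 genes was not tested.

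Among 13 transcription factors that promote Th17 cells, 1 was higher and 3 were lower in libraries labelled *Pgam* ASO, beside 8.03% and 9.15% of all tested genes, and the median difference was -0.0091 on the log2 scale (-0.072 to 0.039 with each library left out, above 0 without *Pgam* ASO replicate 2 and with no filter). *Batf*, an AP-1 factor needed for Th17 cells, rose from 36.6 ± 5.71 to 61.7 ± 10.2 CPM (SD, n = 3 each, log2 fold change 0.75, edgeR adjusted p = 0.0108). *Ikzf3*, which encodes Aiolos, fell from 101.5 ± 42.9 to 17.4 ± 5.26 CPM (log2 fold change -2.54, edgeR adjusted p = 0.0122). *Maf* (-0.61) and *Nfkbiz* (-0.62) also fell, *Irf4* was at 520 and 819 CPM without passing (edgeR adjusted p = 0.0507), and *Junb* was level at 678 and 703 CPM. Without *Pgam* ASO replicate 2 the counts were 0 higher and 1 lower, beside 1.03% and 1.48% of all genes tested then, with *Batf* and *Ikzf3* lost (edgeR adjusted p = 0.0569 and 0.0602), and 3 and 2 were higher without scrambled replicate 3 and *Pgam* ASO replicate 3, beside 11% and 10.2%. *Irf4*, which lies at the threshold, passed in those 2 settings and with RLE factors, library size alone, no filter, at least 10 counts, limma-voom and DESeq2 (adjusted p = 0.00265). *Nfkbiz* was lost without scrambled replicate 1, *Pgam* ASO replicate 1 or *Pgam* ASO replicate 2 (edgeR adjusted p up to 0.0827).

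Of 10 genes that restrain Th17 differentiation, 2 were higher and 2 lower, beside 8.03% and 9.15% of all tested genes, with a median of -0.36 (-0.45 to -0.24 with each library left out). *Foxp3*, the Treg factor that opposes the Th17 program, fell from 291 ± 74.7 to 110 ± 20.6 CPM (SD, n = 3 each, log2 fold change -1.41, edgeR adjusted p = 0.00567), and passed whichever library was left out. *Gfi1*, a repressor of the Th17 program, rose from 87.0 ± 16.3 to 160.4 ± 26.7 CPM (log2 fold change 0.88, edgeR adjusted p = 0.00887) and likewise passed with each library left out. *Egr2* was higher (0.85) and *Socs3*, a brake on IL-6 signalling, lower (-0.63), but *Egr2* passed only without *Pgam* ASO replicate 3, and *Socs3* only without scrambled replicate 3 or *Pgam* ASO replicate 3, when 1 library was left out. The abundant *Ets1* (-0.47, edgeR adjusted p = 0.0697) and *Stat5b* (-0.26, edgeR adjusted p = 0.0601) did not pass, but did with DESeq2 (adjusted p = 0.0226 and 0.0435), as *Ets1* did with no filter and *Stat5b* with library size alone, and both without scrambled replicate 3 and *Ets1* without *Pgam* ASO replicate 3. With scrambled replicate 3 left out, 1 was higher and 6 were lower, beside 11% and 11.4% of all genes tested then, and with *Pgam* ASO replicate 3 left out, 2 and 4, beside 10.2% and 11.3%, whereas 1 and 1 were called without any other library, where 1.03% to 3.25% of all genes were called higher and 1.48% to 4.98% lower.

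Among 16 shared receptor chains and signal transducers of IL-6, IL-1, IL-23, IL-21 and TGF-β, 1 was higher and 4 lower, beside 8.03% and 9.15% of all tested genes, with a median of -0.17 (-0.19 to -0.16 with each library left out). *Il12rb1*, the chain that IL-23 and IL-12 receptors share, rose (0.56, edgeR adjusted p = 0.0363), opposite in sign to *Il23r*. *Tgfbr1* (-0.50) and *Tgfbr2* (-0.51), the chains of the TGF-β receptor, *Il1rn*, an antagonist of IL-1 (edgeR adjusted p = 0.0397), and the kinase gene *Jak1* (-0.39) fell. *Il6st*, the signal chain that pairs with the product of *Il6ra*, had the largest change of the list, from 77.0 ± 30.5 to 23.9 ± 11.3 CPM without overlap (SD, n = 3 each, log2 fold change -1.68), and lay at the threshold (edgeR adjusted p = 0.0502). It passed with library size alone, at least 10 counts, limma-voom, DESeq2 (adjusted p = 0.00882) and without scrambled replicate 3 or *Pgam* ASO replicate 3, and its adjusted p was up to 0.161 in the other settings with edgeR. *Jak3* (-0.23) and *Jak2* (-0.14) did not pass, except *Jak3* without *Pgam* ASO replicate 3 (edgeR adjusted p = 0.0459). Of the genes that passed, *Tgfbr1* was lost only without scrambled replicate 1 (edgeR adjusted p = 0.0503) and *Il1rn* was kept only without scrambled replicate 2 when 1 library was left out and lost with limma-voom (adjusted p = 0.0679), while *Il12rb1*, *Tgfbr2* and *Jak1* were each lost without scrambled replicate 1, scrambled replicate 2, *Pgam* ASO replicate 1 or *Pgam* ASO replicate 2 (edgeR adjusted p up to 0.110, 0.137 and 0.135). With scrambled replicates 1 and 2 and *Pgam* ASO replicates 1 and 2 left out in turn, 0 were higher and 0, 2, 1 and 1 lower, while calls over all tested genes fell too, to 1.45%, 3.25%, 2.10% and 1.03% higher and 2.58%, 4.98%, 3.5% and 1.48% lower.

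Other products of Th17 cells gave 5 higher and 0 lower of 15, beside 8.03% and 9.15% of all tested genes, with a median of 0.41. That median was 0.28 without scrambled replicate 2, 0.66 without scrambled replicate 3 and 0.64 without *Pgam* ASO replicate 3. The sign was positive for 11 of the 15 and not for the rest. Among the latter was *Ccl20*, the gene of the CCR6 ligand, at 6.16 against 4.33 CPM with overlapping groups (log2 fold change -0.51, edgeR adjusted p = 0.278). *Csf2*, the gene of GM-CSF, rose from 4.67 ± 1.20 to 39.7 ± 14.8 CPM (SD, n = 3 each, log2 fold change 3.09, standard error 0.31, edgeR adjusted p = 0.00139) and passed with each library left out. *Il24* (log2 fold change 3.26, edgeR adjusted p = 0.0187), *Il9* (2.37, edgeR adjusted p = 0.0220), *Cxcl3* (2.79, edgeR adjusted p = 0.0269) and *Ltb4r1* (1.59, edgeR adjusted p = 0.0101) were also higher. *Ltb4r1* encodes a receptor and not a secreted product, so the list is broader than its name. *Cxcl3* met the filter in 0 of 3 scrambled libraries and so passed it through the high group alone. *Il24* was lost without scrambled replicate 1, scrambled replicate 2 or *Pgam* ASO replicate 2, *Il9* and *Cxcl3* without scrambled replicate 1, *Pgam* ASO replicate 1 or *Pgam* ASO replicate 2, and *Ltb4r1* without *Pgam* ASO replicate 2 (edgeR adjusted p = 0.0516). In the unfiltered table *Il24* and *Il9* did not pass either (edgeR adjusted p = 0.0561 and 0.101). The abundant *Lta* (0.61, edgeR adjusted p = 0.150) and *Furin* (0.053, edgeR adjusted p = 0.806) did not pass, though *Lta* did with DESeq2 (adjusted p = 0.0219) and without scrambled replicate 2. The count of 5 was 2 without scrambled replicate 1, 3 without *Pgam* ASO replicate 1 and 1 without *Pgam* ASO replicate 2, beside 1.45%, 2.10% and 1.03% of all genes tested in those settings.

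Of 13 other IL-17 family ligands and receptors of IL-17 and IL-22, 6 were tested and 2 were lower, beside 9.15% of all tested genes, with a median of -0.47. With each library left out that median was from -0.50 to -0.25 over 6 to 8 tested genes, smallest in size without *Pgam* ASO replicate 3. *Il17ra*, which encodes the receptor chain for IL-17A and IL-17F, was at 109 ± 29.0 and 70.1 ± 8.95 CPM (SD, n = 3 each, log2 fold change -0.64, edgeR adjusted p = 0.0472) and its groups overlapped. *Il10rb*, a chain of the IL-22 receptor, was at 33.8 ± 2.93 and 23.9 ± 4.30 CPM (-0.50, edgeR adjusted p = 0.0375). With library size alone 1 was lower, *Il17ra* being lost (edgeR adjusted p = 0.0595). Each of these 2 calls was lost without scrambled replicate 1, scrambled replicate 2, *Pgam* ASO replicate 1 or *Pgam* ASO replicate 2 (edgeR adjusted p up to 0.150 and 0.135), where 1.48% to 4.98% of all genes were called lower. The signal adaptor gene *Traf3ip2* (-0.49) and *Il17rb* (0.18) did not pass, except *Traf3ip2* with DESeq2 (adjusted p = 0.0487), with no filter and without *Pgam* ASO replicate 3, and *Il17b*, *Il25* and *Il22ra1* had 0 counts in every library.

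**Figure D5:**
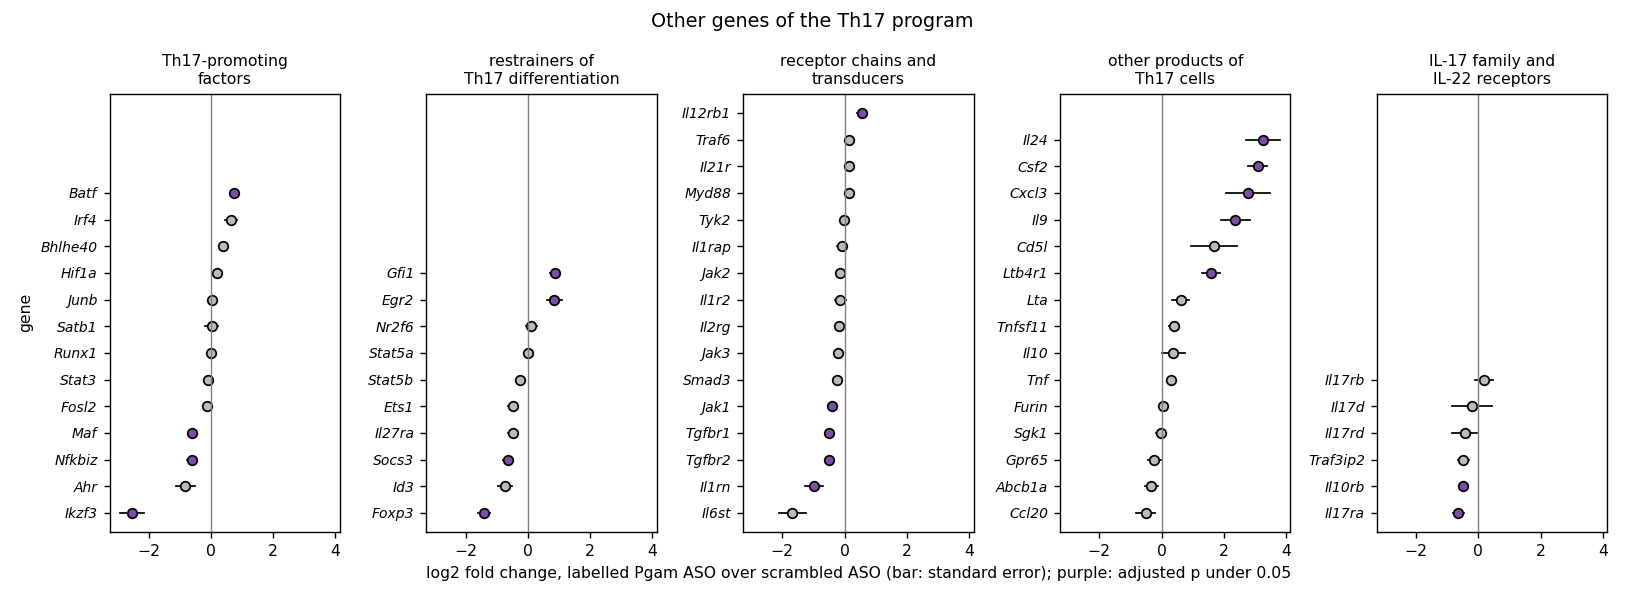
Log2 fold change of the tested genes of 5 lists around the Th17 program, *Pgam* ASO over scrambled, with the standard error as a bar and genes with an adjusted p under 0.05 in purple. The other products of Th17 cells hold the highest values (*Il24* at 3.26 and *Csf2* at 3.09), and *Ikzf3* at -2.54 the lowest.

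As a description of likeness, log2 CPM of 11920 genes was correlated with that of *Il17a* and of *Rora* over the 6 libraries, which form 2 groups, so that r mixes the group difference with the spread within groups. The genes most like *Il17a* were *Cd40lg* (r = 0.998), *Exosc1* (0.997), *Mtr* (0.995), *Ddx55* (0.995) and *Tnfrsf10b* (0.994), and 6.44% of genes had an r over 0.9. Those most like *Rora* were *Secisbp2l* (0.998), *Pak1* (0.998), *Ube2b* (0.997), *Cd69* (0.996) and *Zfp760* (0.995), with 9.38% over 0.9.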

How the data were processed

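RNA-seq libraries from 6 cultures were grouped by their labels, 3 scrambled and 3 *Pgam* ASO. The authors deposited 1 table of expected counts per Ensembl gene, estimated with Kallisto against GRCm38 (version not given in the sources used here) and not normalized. The values were already whole, so rounding changed none. Symbols were matched for 52073 of 56748 genes, and coordinates and lengths came from GENCODE M21. In R 4.3.3, counts were filtered with filterByExpr (about 0.599 CPM), scaled by TMM and tested with edgeR 4.0.16 (robust quasi-likelihood, two-sided, Benjamini-Hochberg adjustment over all 14936 tested genes, threshold 0.05). The procedure was tested on simulated data with 200 or 2000 changed genes. False calls exceeded the nominal share with 200 and stayed under it with 2000. Calls near the threshold are thus less certain than their adjusted p where few genes change. Alternatives were RLE factors, library size alone, other filters, DESeq2 1.42.0, limma-voom (limma 3.58.1), a replicate block, each library left out and a threshold of 0.01. The alternatives for the gene lists and the longest transcript as length were chosen after seeing the data.

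The genes and lists were chosen with earlier results of these data known. Beside the 9 genes, *Pgam1*, *Pgam2* and *Foxp3*, each list was described by up to 4 genes with the largest absolute change among those that passed and up to 2 most abundant among those that did not, each marker list by its most abundant gene, and likeness by the 5 highest Pearson r (mean log2 CPM of at least 1, prior count 2). *Jak1*, *Il6st*, *Ltb4r1*, *Ccl20*, *Cd28*, *Cd3e*, *Cd3d*, *Cd3g*, *Cd2*, *Lck*, *Cd8a*, *Tcrg-C1*, *Tcrg-C4*, *Trdc*, *Cd163l1*, *Sox13*, *Blk*, *Tyrobp*, *Klrd1*, *Klrb1c*, *Ncr1*, *Itgam*, *Il17b*, *Il25*, *Il22ra1* and *Iltifb* were named after their values were seen. No library pair looked duplicated (chi-square per degree of freedom 7.39 to 27.1 within groups). The study calls the libraries biological replicates, and the sources do not say whether they come from separate animals, so p-values measure the spread between these libraries. The window of *Il17f* is not printed because an exon of a longer transcript reaches into it, nor that of *Il22*, which reaches into the annotated gene.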

Additional observations from a re-analysis of the deposited data

How the results depend on the processing

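Of the 9 genes, the 3 called higher in libraries labelled *Pgam* ASO became 1 at an adjusted p under 0.01 and from 1 to 5 with each library left out, and the 3 called lower became from 1 to 4 with each library left out. The 2565 genes called over the whole table were 453 at 0.01, and from 391 (without *Pgam* ASO replicate 2) to 3484 (without scrambled replicate 3) with each library left out. The 5 lists had 13, 10, 16, 15 and 6 tested genes, and 20 were called over them, beside 17.2% of all tested genes. At 0.01 they were 5. With each library left out they were from 5 (without *Pgam* ASO replicate 2) to 26 (without *Pgam* ASO replicate 3). Of all genes tested in those settings, 1.03% and 10.2% were called higher and 1.48% and 11.3% lower. The 1 higher transcription factor became 2 with RLE factors, library size alone, at least 10 counts or limma-voom and 3 with no filter or DESeq2, and the 2 lower restrainers 5 with no filter and 6 with DESeq2.

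With the replicate block, 1235 genes were called over the whole table and 12 over the lists, and *Il1r1* no longer passed (edgeR adjusted p = 0.0790), nor did *Socs3*, *Il1rn*, *Il12rb1*, *Tgfbr2*, *Jak1*, *Cxcl3*, *Il17ra* and *Il10rb*. Libraries with equal numbers did not deviate together (r of 0.053, -0.034 and -0.24 across genes), so the numbers are not taken to pair them.

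The receptor and factor median was -1.02 with at least 10 counts in every library, which removed *Il1r1*, and from -0.98 to -0.65 with each library left out. The log2 fold change of *Il22* kept its sign but did not pass with DESeq2 (2.30), and ran from 1.81 to 2.68 with each library left out (edgeR adjusted p from 0.00170 to 0.210). With each library left out, signs turned for *Il17f* (-0.080 to 0.70, negative without *Pgam* ASO replicate 1), *Junb* (-0.040 to 0.16, without scrambled replicate 2) and *Furin* (-0.10 to 0.16, -0.038 without scrambled replicate 2 and lowest without *Pgam* ASO replicate 1), and for the median of the transcription factors. The cause was not tested. RLE factors and library size alone changed no call among the 9 genes. Low counts limit *Il22* and *Il1r1*, with 2 to 10 in each scrambled library.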
